A study of Mus musculus with 16 samples.

Results

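Regulatory T cells that carry the transcription factor Foxp3 (TFoxp3+ cells) were compared after activation in culture and directly after isolation. The comparison took the 8 of 16 arrays whose labels give Foxp3-positive cells: 4 arrays of activated TFoxp3+ cells and 4 arrays of ex vivo TFoxp3+ cells. The members were chosen by label alone, and every one of 16475 genes was tested. The cells were CD4+ and GFP+ and came from lymph nodes and spleens of female mice, aged 6 to 12 weeks, that carry a GFP-Foxp3 reporter knock-in allele on the C57BL/6 background. The same allele marked the TFoxp3− cells (CD4+, GFP−) of the other 8 arrays, which serve as a contrast where named. Purity after sorting was above 97% by the study's methods.

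Activated TFoxp3+ cells had spent 36 h in culture with human IL-2 (100 U/ml) on plates coated with CD3 and CD28 antibodies at 5 µg/ml, whereas ex vivo TFoxp3+ cells had received neither. Cycloheximide at 100 µg/ml, a drug that stalls ribosomes on their mRNA, was added to activated cells when culture ended and was present in all buffers for ex vivo cells. In each state 2 arrays measured cytosolic mRNA and 2 measured polysome-associated mRNA, that is, mRNA carrying at least 3 ribosomes. Arrays are numbered from 1 to 16: activated TFoxp3+ cells are on 13 and 15 (cytosolic) and 14 and 16 (polysome-associated), and ex vivo TFoxp3+ cells are on 1 and 5 (cytosolic) and 2 and 6 (polysome-associated). The methods call the 2 arrays of a group biological duplicates, and each ex vivo sample combined the RNA of 2 experiments. The labels do not tie a cytosolic array to a polysome array, and 4 arrays of a state may come from only 2 cell preparations, so p-values measure the spread between arrays. The states were labelled as different array series, so that state and array series cannot be told apart. Cycloheximide timing, culture and recent isolation from tissue also went with the state, so none of them can be told apart from activation.

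Regulatory T cells restrain immune responses, and Foxp3 maintains their programme. Signals through the T cell receptor, CD28 and the IL-2 receptor bring a resting T cell into the cell cycle: Myc and the E2F factors raise genes of ribosome production, DNA replication and mitosis, while the factors of quiescence decline. The mRNA level in the cytosol and the share of an mRNA on polysomes both set how much protein is made, so that measuring both shows where they part.

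Values are log2 RMA intensities, so that a difference of 1 is a doubling, and levels are compared only within a gene. Over both RNA fractions, 6048 genes passed an adjusted p of 0.05 (limma, Benjamini-Hochberg over all genes, fraction as a blocking term): 3143 were higher in activated cells (19.1% of genes tested) and 2905 were lower (17.6%). More than 2-fold changes were measured for 1979 of the higher and 2331 of the lower genes. The 4 activated and the 4 ex vivo arrays did not overlap for 6446 genes (39.1% of all). The median change of all genes was 0.116, and it fell with the level of the gene, with medians of 0.251, 0.211, 0.037 and −0.503 in 4 equal groups of genes ordered by rising level.

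Several technical measures moved with the state. The 2 activated arrays of a fraction correlated at r = 0.888 in cytosolic and r = 0.887 in polysome-associated mRNA across genes, against 0.986 and 0.98 for the ex vivo arrays. Correspondingly, the SD between the 2 arrays was 0.686 and 0.713 for activated cells, against 0.263 and 0.313 for ex vivo cells. The 3′ probe set of beta-actin lay −0.59 to −0.26 relative to its 5′ probe set on the activated arrays, against 4.16 to 4.64 on the ex vivo arrays. For Gapdh the same difference was 1.04 to 1.32 on activated arrays and 3.51 to 4.12 on ex vivo arrays. These differences did not overlap between the states, and their part in the changes was not tested. In bulk RNA, fewer cells of a kind and less RNA per cell cannot be told apart.

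The arrays carried the markers that the label names. Foxp3 itself lay high in both states, at 10.48, 9.76, 9.42 and 10.76 on activated arrays 13, 15, 14 and 16, against 10.29, 10.65, 10.46 and 10.59 on ex vivo arrays 1, 5, 2 and 6. The arrays of the states overlapped, and the difference of −0.40 ± 0.32 (SE) was not called (adjusted p = 0.3535). Tnfrsf18, which encodes the costimulatory receptor GITR, averaged 12.56 on activated and 12.36 on ex vivo arrays and was not called either (0.20 ± 0.19, adjusted p = 0.4351). The T cell receptor chains Cd3e and Cd3d averaged 11.68 and 11.33 in activated cells, against 10.64 and 12.35 in ex vivo cells. They were called in opposite directions, at 1.03 ± 0.18 (adjusted p = 0.004079) and −1.02 ± 0.17 (adjusted p = 0.003067). Cd3g averaged 10.82 in activated and 10.38 in ex vivo cells. Its activated arrays spread from 8.7 to 12.12, and it was not called (adjusted p = 0.5756). Cd4 averaged 9.79 in activated cells and 7.16 in ex vivo cells, a called difference of 2.63 ± 0.23 (adjusted p = 0.0002508).

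Other regulatory T cell genes separated the states widely. Il2ra, the high-affinity IL-2 receptor chain CD25, measured 11.38, 10.77, 10.43 and 10.02 on the activated arrays, against 7.12, 7.54, 7.17 and 6.94 on the ex vivo arrays. All activated arrays lay above all ex vivo arrays, by 3.46 ± 0.24 or 10.99-fold (adjusted p = 9.469e-05). Ctla4, the inhibitory receptor for CD80 and CD86, measured 12.75, 12.94, 11.58 and 12.16 in activated cells, against 10.31, 10.26, 10.42 and 9.56 in ex vivo cells. This rise was 2.22 ± 0.27 (adjusted p = 0.0008606). Ikzf2, which encodes the transcription factor Helios, measured 8.27, 6.62, 7.96 and 9.64 in activated cells and 4.06, 4.33, 5.89 and 4.99 in ex vivo cells. Its states did not overlap, although the activated arrays were widely spread, and it rose by 3.30 ± 0.48 (adjusted p = 0.001849).

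**Figure D1:**
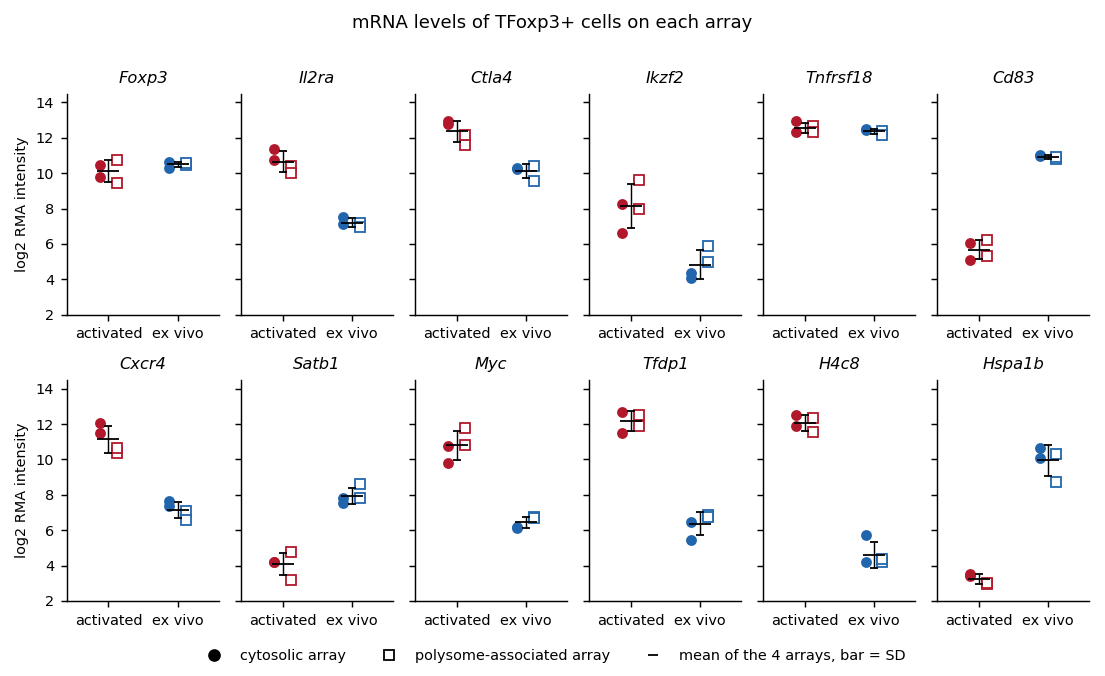
Levels of 12 genes (log2 RMA intensity, vertical axis) on each of the 4 activated and 4 ex vivo arrays of TFoxp3+ cells. Filled circles are cytosolic arrays, open squares are polysome-associated arrays, and the bar gives the mean ± SD of 4 arrays. Foxp3 and Tnfrsf18 overlap between the states, and the other 10 genes do not.

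Of 36 measured genes typical of regulatory T cells, 15 were higher and 7 were lower in activated cells, and 14 were not called. Their median change was 0.28, against 0.116 over all genes. Of all genes tested 19.1% were higher and 17.6% lower, and the counts of every list below are to be read beside these shares. Higher genes included Nt5e, the ecto-enzyme CD73 that makes adenosine (3.27 ± 0.25, adjusted p = 0.0001353), Ccr8, a chemokine receptor of activated regulatory T cells (4.19 ± 0.33), and Gzmb, the protease granzyme B (2.33 ± 0.16). Tgfb1, an immunosuppressive cytokine, rose by 3.05 ± 0.56 over both fractions. Its cytosolic change of 1.93 ± 0.59 was not called (adjusted p = 0.06182), and its polysome-associated change of 4.18 ± 0.59 was (adjusted p = 0.005596). The difference between these changes, 2.25 ± 0.84, was not called (adjusted p = 0.4892). Il10 averaged 7.46 in activated and 7.36 in ex vivo cells (adjusted p = 0.8723). The largest fall of the group was that of Cd83, a membrane glycoprotein of activated lymphocytes. Cd83 measured 5.11, 6.08, 5.32 and 6.20 on the activated arrays and 11.05, 10.95, 10.78 and 10.91 on the ex vivo arrays. It was 37.86-fold lower in activated cells (−5.24 ± 0.28, adjusted p = 4.505e-05), with nearly the same change in cytosolic (−5.41) and polysome-associated mRNA (−5.08).

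Genes of naive and quiescent T cells did not move as a block. Of 31 measured, which include the early response genes Fos and Junb, 12 were lower, 7 were higher and 12 were not called, with a median change of −0.61. Satb1, a chromatin organiser of T cells, measured 4.21, 4.19, 4.74 and 3.2 in activated cells, against 7.51, 7.81, 7.84 and 8.59 in ex vivo cells. It fell by 3.85 ± 0.37 (adjusted p = 0.0003558). Klf2, a factor of quiescence and recirculation, averaged 8.17 in activated and 11.72 in ex vivo cells (−3.55 ± 0.59), and the glucocorticoid-induced Tsc22d3 averaged 6.15 in activated and 10.89 in ex vivo cells (−4.74 ± 0.85). Its 4 activated arrays were widely spread, from 3.96 to 8.15. On the other side, Cdkn1b, the cell cycle inhibitor p27, measured 11.42, 11.33, 11.20 and 10.40 in activated cells and 8.53, 9.49, 7.77 and 7.88 in ex vivo cells. It rose by 2.67 ± 0.29 (adjusted p = 0.0005364), as did Pdcd4, an inhibitor of the helicase eIF4A (2.60 ± 0.21), and Il6st, the signalling chain gp130 (3.31 ± 0.28). Il7r, the IL-7 receptor chain, averaged 6.17 in activated and 6.78 in ex vivo cells (adjusted p = 0.1782), and the homing receptor Ccr7 averaged 10.30 in activated and 9.21 in ex vivo cells (adjusted p = 0.08962). Neither was called.

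Among the 12 largest falls that the naming rule admits were Fos, Ier2 and the neighbouring genes Hspa1a and Hspa1b. Ex vivo cells had been isolated in cycloheximide, and the part of the drug and of the isolation in these falls was not tested. Fos, a subunit of the AP-1 factor, measured 5.30, 4.75, 8.86 and 5.46 in activated cells, against 12.23, 12.33, 12.43 and 11.51 in ex vivo cells, and activated array 14 stood above the other 3. The difference was −6.03 ± 0.79 (adjusted p = 0.001227). Ier2, another immediate early gene, fell by 5.48 ± 0.24, Junb by 3.48 ± 0.23 and the NF-κB inhibitor Nfkbia by 4.01 ± 0.39. The inducible Hsp70 gene Hspa1b measured 3.41, 3.53, 2.98 and 3.0 on the activated arrays, against 10.64, 10.10, 10.33 and 8.70 on the ex vivo arrays. It was 104.9-fold lower in activated cells (−6.71 ± 0.35, adjusted p = 4.505e-05), and its near-identical neighbour Hspa1a, whose signal cannot be kept fully apart from it, was lower by a similar amount (−6.42 ± 0.35). Of 30 protein folding and heat shock genes measured, this pair included, 18 rose and 5 fell, with a median change of 1.08. Calr, the endoplasmic reticulum chaperone calreticulin, measured 13.59, 13.52, 13.15 and 12.66 in activated cells and 9.53, 9.82, 8.99 and 9.57 in ex vivo cells (3.75 ± 0.21, adjusted p = 4.884e-05). Hspe1, the mitochondrial chaperonin Hsp10, rose by 3.64 ± 0.29.

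Genes induced through the T cell receptor were mixed after 36 h. Of 37 measured, 11 were higher and 9 were lower, with a median change of 0.25. Myc measured 10.74, 9.82, 11.80 and 10.84 in activated cells, against 6.19, 6.13, 6.74 and 6.69 in ex vivo cells. The rise was 20.59-fold (4.36 ± 0.29, adjusted p = 9.211e-05). Tfrc, the transferrin receptor, rose by 4.60 ± 0.45, with values from 8.11 to 10.35 in activated and from 4.55 to 4.98 in ex vivo cells. Irf4, a factor of effector differentiation, rose by 1.53 ± 0.21 (adjusted p = 0.00145), whereas its partner Batf fell by 1.85 ± 0.30 (adjusted p = 0.002933). Cd69, an early activation antigen, gave 10.75, 2.49, 2.94 and 5.45 on the activated arrays, a spread that left it uncalled (adjusted p = 0.6394). Of 25 proximal signalling genes 9 were lower and 5 higher (median −0.63), against 5 lower and 5 higher after cyclic loess normalization between arrays (median −0.1). Fyn, a Src-family kinase, averaged 6.35 in activated and 9.26 in ex vivo cells (−2.91 ± 0.29).

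Among 29 cytokine and granzyme genes, 10 were higher and 6 lower. Il2 measured 8.74, 5.70, 9.40 and 8.49 in activated TFoxp3+ cells, against 3.84, 3.76, 3.69 and 3.87 in ex vivo cells (4.29 ± 0.67, adjusted p = 0.002505). The chemokine gene Ccl3 rose by 3.89 ± 0.41 and the cytokine gene Il3 by 2.85 ± 0.26. Ltb, lymphotoxin beta, was lower by 3.07 on the log2 scale (SE 0.20). Ifng averaged 6.93 in activated and 5.05 in ex vivo cells but ranged from 4.76 to 9.30 over the activated arrays and was not called (adjusted p = 0.1432). Homing receptors moved in both directions, 7 higher and 8 lower of 22. Ccr4, a receptor for chemokines of skin and inflamed tissue, rose by 4.29 ± 0.24 (adjusted p = 4.767e-05), while Cxcr3, a receptor for interferon-induced chemokines, averaged 8.56 in activated and 12.53 in ex vivo cells (−3.97 ± 0.45).

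The interferon response genes were the list with the largest share of falls: 17 of 29 were lower and 1, Zbp1, was higher (0.75 ± 0.25, adjusted p = 0.04988), with a median change of −1.07. Without ex vivo array 6, 11 of the list were called lower. Usp18, a negative regulator of interferon signalling, measured 3.09, 4.12, 2.61 and 4.06 in activated cells and 9.17, 8.76, 8.47 and 8.56 in ex vivo cells. It fell by 5.27 ± 0.36 (adjusted p = 9.469e-05). Irf7, the factor that amplifies type I interferon, measured 6.13, 5.75, 5.64 and 5.72 in activated cells, against 8.30, 8.06, 8.07 and 8.30 in ex vivo cells. All activated arrays lay below all ex vivo arrays, by 2.37 ± 0.18 on the log2 scale (adjusted p = 0.0001179).

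**Figure D2:**
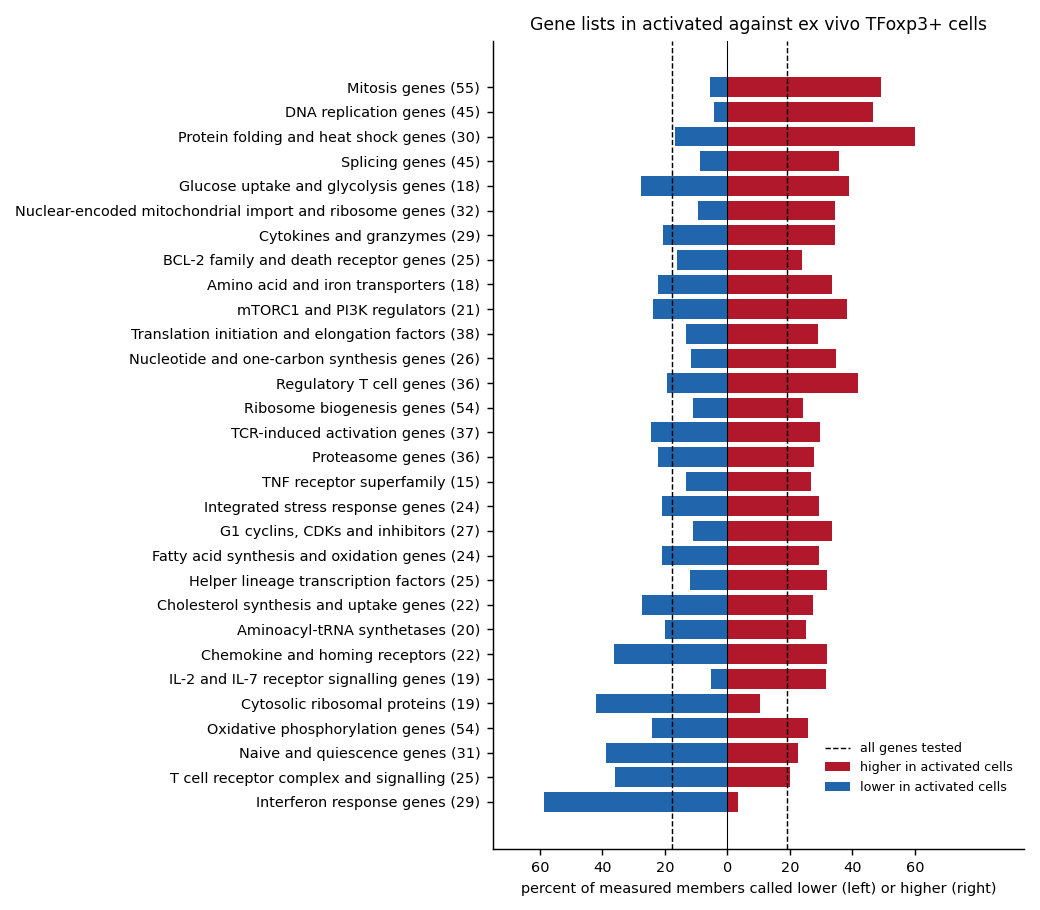
Percent of the measured members of each gene list (number in brackets) that were called higher (red, right) or lower (blue, left) in activated than in ex vivo TFoxp3+ cells, with lists ordered by their median change, and dashed lines give the share of all genes tested, 19.1% higher and 17.6% lower. Mitosis genes had the highest median (1.25) and interferon response genes the lowest (−1.07).

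Many cell cycle genes rose. The list of 45 DNA replication genes had 21 that rose and 2 that fell, with a median change of 1.16, and of 55 mitosis genes 27 rose and 3 fell, with a median of 1.25. Rrm2, a subunit of the ribonucleotide reductase that makes DNA precursors, measured 11.03, 11.19, 10.90 and 11.45 in activated cells, against 7.0, 5.93, 7.34 and 6.42 in ex vivo cells. This was a rise of 22.16-fold (4.47 ± 0.32, adjusted p = 0.0001028). The helicase subunit Mcm3 rose by 3.67 ± 0.25. Ube2c, which passes ubiquitin to mitotic cyclins, measured 9.62, 11.26, 10.21 and 10.16 in activated cells and 5.6, 5.67, 4.75 and 5.32 in ex vivo cells (4.98 ± 0.35, adjusted p = 0.0001001). The mitotic kinesin Kif20a rose by 5.58 ± 0.68, with activated arrays spread from 6.29 to 10.38. Not all members followed. The replication licensing factor Cdt1 fell by 1.79 ± 0.44, the single-strand DNA binding subunit Rpa1 by 2.01 ± 0.33 and the centromere histone Cenpa by 2.38 ± 0.36. Mki67, which encodes the proliferation marker Ki-67, averaged 6.34 in activated and 7.11 in ex vivo cells and was not called (−0.77 ± 0.37, adjusted p = 0.1349).

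Of 27 cyclins, CDKs and inhibitors of the G1 phase, 9 were higher, 3 lower and 15 not called, with a median change of 0.18. Tfdp1, the dimerisation partner of E2F factors, measured 12.70, 11.49, 12.53 and 11.89 in activated cells, against 6.44, 5.42, 6.88 and 6.75 in ex vivo cells. It rose 54.99-fold (5.78 ± 0.37, adjusted p = 7.968e-05). Cdk6, the kinase that pairs with D cyclins, rose by 4.99 ± 0.35. The replication-dependent histone gene H4c8 measured 12.50, 11.87, 12.33 and 11.55 on the activated arrays and 4.22, 5.72, 4.19 and 4.37 on the ex vivo arrays. Its difference of 7.44 ± 0.37 (adjusted p = 3.604e-05) was the largest rise among the genes that the naming rule admits, with linker histone H1f4 at 6.26 ± 0.34. Histone genes are close copies of each other, so their probe sets may not keep them apart. The other largest rises were those of Ftsj3 (6.66 ± 0.34), a factor of ribosomal RNA processing, Usp24 (6.23 ± 0.72), a deubiquitinase, Vdac1 (6.17 ± 0.24), the main channel of the outer mitochondrial membrane, Ranbp9 (6.04 ± 0.51), Mob1b (5.99 ± 0.26), a Hippo pathway adaptor, Il17ra (5.85 ± 0.22), the IL-17 receptor chain, Mrpl42 (5.82 ± 0.31), a mitochondrial ribosomal protein, and Nop58 (5.77 ± 0.35), a core protein of box C/D particles. The other largest falls were those of the Notch regulator Dtx1 (−6.04 ± 0.50), Helz2 (−5.98 ± 0.32), Klhl22 (−5.80 ± 0.26), Rgl2 (−5.78 ± 0.47), Fam117a (−5.63 ± 0.41) and Tmem230 (−5.15 ± 0.19).

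The promoters of 4 risen cell cycle genes are shown, from lists with many members that rose. They were chosen among genes whose window holds the letters searched. Each line gives the 250 bases before the annotated start in RefSeq (GRCm38.p6), 5′ to 3′ on the gene's strand, with capitals marking the letters TTTGGCGC (a site of E2F factors) in Mcm6 and TTTGAA (the CHR, a site of the DREAM complex) in the other genes, on either strand.
Mcm6 (chr1:128359706-128359955, minus strand): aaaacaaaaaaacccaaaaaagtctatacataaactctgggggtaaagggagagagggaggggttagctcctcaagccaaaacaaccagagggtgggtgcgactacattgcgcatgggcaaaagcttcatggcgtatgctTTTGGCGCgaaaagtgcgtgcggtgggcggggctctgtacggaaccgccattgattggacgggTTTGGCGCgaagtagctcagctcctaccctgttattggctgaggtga
Ube2c (chr2:164769679-164769928, plus strand): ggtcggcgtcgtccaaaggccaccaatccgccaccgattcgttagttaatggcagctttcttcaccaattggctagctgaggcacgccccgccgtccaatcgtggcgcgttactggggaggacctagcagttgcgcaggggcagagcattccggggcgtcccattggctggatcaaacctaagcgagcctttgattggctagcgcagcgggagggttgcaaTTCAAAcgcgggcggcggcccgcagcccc
Top2a (chr11:99024190-99024439, minus strand): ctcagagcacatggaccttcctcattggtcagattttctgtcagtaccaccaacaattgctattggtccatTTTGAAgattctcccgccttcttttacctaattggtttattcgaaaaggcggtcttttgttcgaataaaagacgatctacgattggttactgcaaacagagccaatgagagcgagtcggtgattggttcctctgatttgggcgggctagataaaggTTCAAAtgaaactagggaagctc
Cdk1 (chr10:69352913-69353162, minus strand): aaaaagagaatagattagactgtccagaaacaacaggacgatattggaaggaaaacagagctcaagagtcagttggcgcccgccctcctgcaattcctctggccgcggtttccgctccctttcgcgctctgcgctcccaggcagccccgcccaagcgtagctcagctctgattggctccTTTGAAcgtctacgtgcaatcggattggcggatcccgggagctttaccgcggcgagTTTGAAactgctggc
Of the 4 genes, Mcm6 encodes a subunit of the replicative helicase (1.93 ± 0.29), Top2a the topoisomerase that untangles chromosomes (3.55 ± 0.51) and Cdk1 the mitotic kinase (2.28 ± 0.47), and Ube2c is described above.

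Over the lists, TTTGAA stood in 19 of 50 windows of mitosis genes (38.0%), which belong to 45 of the 55 genes, and in 16% of 32851 windows of all genes. TTTGGCGC stood in 3 of 46 windows of DNA replication genes (6.52%), from 38 of 45 genes, and in 0.417% of all windows. The 3 genes were Mcm5, Mcm6 and Pola1, and each of them rose. Among windows of the replication genes that rose, 3 of 21 held these letters. TTTGAA stood in 9 of 20 windows of the mitosis genes that rose, and also before Bub3, which fell (−1.12). A further 3 motifs were searched on both strands. The E-box CACGTG (a site of Myc and related factors) stood in 3 of 57 windows of ribosome biogenesis genes (5.26%) and in 6.02% of all windows. TGATGNAA (a composite site of C/EBP and ATF4) stood in 3 of 15 windows of aminoacyl-tRNA synthetases and in 3.45% of all. TCACNCCAC (a site of SREBP factors) stood in 0 of 26 windows of cholesterol genes and in 1.05% of all. These are counts of letters within 250 bases, and no test was made.

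Among the genes of growth, ribosome biogenesis had 13 higher and 6 lower of 54, with a median change of 0.27. Ncl, the nucleolar protein nucleolin, measured 9.51, 9.56, 10.38 and 9.90 in activated cells, against 6.09, 6.24, 5.55 and 5.67 in ex vivo cells (3.95 ± 0.27, adjusted p = 9.469e-05). Of 38 translation factors, 11 were higher and 5 lower over both fractions, against 17 higher and 2 lower after cyclic loess normalization. Eif4e, the cap-binding factor, measured 5.68, 5.00, 5.61 and 4.50 in activated cells and 5.21, 5.24, 5.26 and 5.14 in ex vivo cells. The states overlapped, and the difference was −0.01 ± 0.28 (adjusted p = 0.9718). Eif3a, a subunit of the initiation complex eIF3, rose by 3.12 ± 0.33, and its partner subunit Eif3f fell by 2.04 ± 0.20.

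Of 45 splicing genes 16 were higher and 4 lower (median 0.71), led by Snrpd1, a core protein of spliceosomal particles, which rose 30.68-fold (4.94 ± 0.24, adjusted p = 3.604e-05). Of 68 cytosolic ribosomal protein genes listed, 19 were measured, of which 8 were lower and 2 higher, against 5 lower and 5 higher after cyclic loess normalization. Rps6, a small subunit protein, measured 6.43, 4.84, 3.86 and 4.20 in activated cells and 9.44, 9.65, 7.70 and 6.37 in ex vivo cells, with overlap between activated array 13 and ex vivo array 6 and a wide spread in both states (−3.46 ± 0.44, adjusted p = 0.001063). Of 18 genes for glucose uptake and glycolysis, 7 were higher and 5 lower. Slc16a3, a lactate exporter, measured 9.35, 9.88, 9.73 and 10.27 in activated cells, against 4.10, 4.53, 4.29 and 4.74 in ex vivo cells (5.39 ± 0.23, adjusted p = 3.138e-05). Hk1, a hexokinase, rose by 4.60 ± 0.41. Of 54 genes of oxidative phosphorylation, 14 were higher and 13 lower (median −0.22), whereas cyclic loess normalization between arrays gave 22 higher and 6 lower (median 0.31). Among 36 proteasome genes 10 were higher and 8 lower (median 0.21), but 17 higher and 2 lower after cyclic loess (median 0.74), and the activator subunit Psme3 rose most (5.42 ± 0.26).

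The changes in the RNA fractions were next set side by side. In cytosolic mRNA 1758 genes were higher in activated cells (10.7%) and 1761 lower (10.7%), and in polysome-associated mRNA 1618 were higher (9.82%) and 1762 lower (10.7%). Both fractions called 958 genes higher and 1097 genes lower, together 2055 genes. This was 58.4% of the cytosolic and 60.8% of the polysome-associated calls. The fit gave both fractions a single spread per gene, and they may come from the same cells, so their calls are not independent. Among genes called in a single fraction, 1283 of 1452 cytosolic and 1176 of 1313 polysome-associated calls had the same sign in the other fraction. Of the 6048 genes called over both fractions, 1886 were called in neither fraction alone. All 6048 had the same sign in each fraction, but this was fixed by the fit and is no finding. The fit counts a difference between the fractions as error, so that a gene with opposite signs could not be called. Over all genes 78.06% had the same sign, and the changes correlated at r = 0.769 (Spearman 0.73) across genes, which are not independent replicates. Called in both but in opposite directions were 12 genes. The counts rested on the ex vivo duplicates: cytosolic calls numbered 639 without array 1 and 668 without array 5, and polysome-associated calls 937 without array 2 and 955 without array 6.

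**Figure D3:**
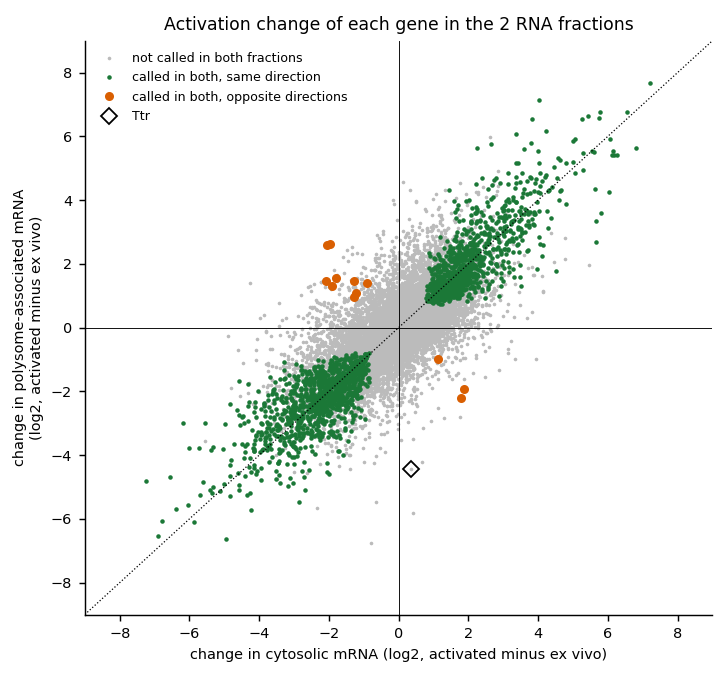
Change of each gene (log2, activated minus ex vivo TFoxp3+ cells) in cytosolic mRNA (horizontal axis) and in polysome-associated mRNA (vertical axis). Green points are the 2055 genes called in both fractions in the same direction, orange points the 12 called in opposite directions, grey points all others, the dotted line marks equal change, and the diamond marks Ttr.

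The difference between the fractions was itself tested, as the polysome-associated minus the cytosolic change. It was called for 1 gene of 16475 (0.00607%), although 1483 genes had an unadjusted p under 0.05. The median size of the difference over all genes was 0.434, with a median SE of 0.480, so that with 2 arrays a group most differences of this size lay within the error. The difference of Kif20a, at 3.09 ± 0.84 (adjusted p = 0.3487), was not called. For Foxp3 the difference was −0.09 ± 0.67, for Il2ra −0.57 ± 0.45 and for Eif4e −0.26 ± 0.58.

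The called gene was Ttr, which encodes the plasma carrier protein transthyretin made in liver and choroid plexus. Ttr measured 3.66, 3.84, 3.64 and 3.65 on the activated arrays, against 3.47 and 3.31 on the ex vivo cytosolic arrays and 7.94 and 8.20 on the ex vivo polysome arrays. The difference of −4.78 ± 0.32 (adjusted p = 0.03796) thus came from high values on ex vivo polysome arrays 2 and 6 alone. Ttr was no longer called with array 1, 2, 5, 6, 15 or 16 left out, where the test called 0 genes. Several other genes of secreted liver proteins had the same pattern, but not all. Serpina1c, an alpha-1-antitrypsin gene with close copies, measured 3.16, 2.26, 3.06 and 3.51 on the activated arrays, against 3.50 and 3.49 on the ex vivo cytosolic arrays and 10.45 and 9.63 on the ex vivo polysome arrays (difference −5.97 ± 0.58, adjusted p = 0.1434). Hpx, which encodes the haem-binding protein hemopexin, measured 2.66, 2.65, 2.85 and 2.75 on the activated arrays, against 3.21, 3.41, 7.58 and 8.94 on ex vivo arrays 1, 5, 2 and 6.

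**Figure D4:**
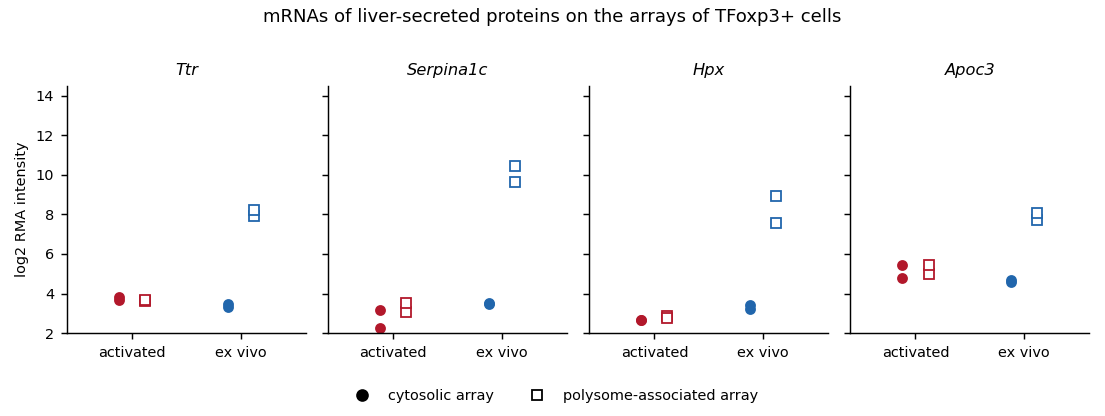
Levels (log2 RMA intensity) of 4 mRNAs of secreted liver proteins on the 8 arrays of TFoxp3+ cells, with cytosolic arrays as filled circles and polysome-associated arrays as open squares. Only the ex vivo polysome arrays (2 and 6) are high, at 7.58 to 10.45, and the other 6 arrays lie at or below 5.45.

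A list of 28 liver genes, written after these values were seen, described the pattern, so its counts are no independent test of it. Both ex vivo polysome arrays exceeded both ex vivo cytosolic arrays for 25 of 28, against 20.7% of all genes. Both activated polysome arrays exceeded both activated cytosolic arrays for 6 of 28. The share of all genes was counted for ex vivo TFoxp3+ arrays only, so the counts for other arrays have no such share beside them. The mean level of the list was 4.57 and 4.76 on the activated polysome arrays, and 5.93 and 6.21 on the ex vivo polysome arrays. On cytosolic arrays it was 4.45 and 4.47 in activated cells and 3.99 and 4.02 in ex vivo cells. In polysome-associated mRNA 11 of the 28 were called lower after activation and 2 higher, in cytosolic mRNA 1 lower and 4 higher. The polysome arrays of ex vivo TFoxp3− cells, 4 and 8, had list means of 6.26 and 4.85, against 3.76 and 3.85 on the cytosolic arrays of these cells, and there too both polysome arrays exceeded both cytosolic arrays for 25 of 28 genes. Of the 25 genes with the smallest p for the difference between the fractions, 8 were in this list. The part of these transcripts in other differences of the fractions was not tested.

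Markers of other cell types were low in most cases, and their counts called stand beside 19.1% of all genes higher and 17.6% lower. Of 12 B cell markers, 8 lay below 5 in both states, and their mean over the list was 4.51 to 5.10 on the activated arrays and 5.38 to 5.6 on the ex vivo arrays. The exceptions were Cd74, which was not called (7.82 in activated and 8.26 in ex vivo cells), the class II genes H2-Aa (4.96 in activated and 8.51 in ex vivo cells) and H2-Eb1 (4.95 in activated and 8.59 in ex vivo cells) and Cd79b (6.25 in activated and 8.89 in ex vivo cells), all 3 called lower. Called higher were Cr2 (4.67 in activated and 3.91 in ex vivo cells) and Ebf1 (3.55 in activated and 2.96 in ex vivo cells), and Ms4a1, which encodes CD20, averaged 3.2 in activated and 3.03 in ex vivo cells. Myeloid markers had list means of 4.49 to 4.74 on activated and 4.26 to 4.46 on ex vivo arrays, with 4 higher and 3 lower of 16, among them Cd68 (6.65 in activated and 3.64 in ex vivo cells). Markers of CD8 T and NK cells had 1 higher and 3 lower of 10 (list means of 4.12 to 4.29 on activated and 4.49 to 4.62 on ex vivo arrays). Among the lower was Nkg7, which stood well above the list means (7.69 in activated and 9.27 in ex vivo cells). Stromal and endothelial markers had 4 higher and 1 lower of 11 (4.59 to 4.81 on activated and 4.04 to 4.12 on ex vivo arrays). Of the 4 measured markers of erythroid cells and platelets (4.5 to 5.06 on activated and 4.01 to 4.19 on ex vivo arrays), Pf4 was higher (6.05 in activated and 3.59 in ex vivo cells). The part of these cells in the changes above was not tested.

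Finally, the change on activation in TFoxp3+ cells was set against that in TFoxp3− cells, whose labels give the same culture. The difference of the changes was called for 1138 of 16475 genes (6.91%, limma over all 16 arrays): 485 were more positive and 653 more negative in TFoxp3+ cells. Of these genes, 431 changed in the same direction but less in TFoxp3+ cells, 227 in the same direction and more, and 480 in opposite directions, 65 of them with each change called. With any of the 8 ex vivo arrays left out, 609 to 749 genes were called. Activated TFoxp3+ and activated TFoxp3− cells were separate array series, so that subset and array series cannot be told apart in activated cells. The actin 3′ and 5′ probe sets also differed between the subsets, by 4.16 to 4.64 on ex vivo TFoxp3+ arrays and 0.82 to 1.38 on ex vivo TFoxp3− arrays, and the part of this in the comparison was not tested.

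Cxcr4, S1pr1 and Sgk1 gave the widest contrasts among the genes named here. Cxcr4, the receptor for the bone marrow and stromal chemokine CXCL12, measured 11.48, 12.05, 10.38 and 10.62 in activated TFoxp3+ cells, against 7.37, 7.63, 7.07 and 6.58 in ex vivo TFoxp3+ cells. In TFoxp3− cells it measured 6.00, 6.70, 5.50 and 4.49 after activation (arrays 9, 11, 10 and 12), against 8.07, 8.13, 7.83 and 7.35 ex vivo (arrays 3, 7, 4 and 8). It was thus higher on all 4 activated TFoxp3+ arrays and lower on all 4 activated TFoxp3− arrays than on the ex vivo arrays of the same cells. The change was 3.97 ± 0.23 in TFoxp3+ and −2.17 ± 0.26 in TFoxp3− cells, a difference of 6.14 ± 0.37 (adjusted p = 3.767e-05). S1pr1, the receptor that guides lymphocytes out of lymphoid tissue, changed by 1.89 ± 0.30 in TFoxp3+ and −3.99 ± 0.45 in TFoxp3− cells (difference 5.87 ± 0.64, adjusted p = 0.0006719). Sgk1, a kinase downstream of PI3K, changed by 2.06 ± 0.30 in TFoxp3+ and −4.32 ± 0.30 in TFoxp3− cells (difference 6.38 ± 0.42, adjusted p = 6.643e-05).

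Of 29 cytokine and granzyme genes 12 had a called difference, and the median difference of the list was −1.42, against 0.0685 over all genes. Il2 averaged 8.08 in activated TFoxp3+ and 11.39 in activated TFoxp3− cells, and its changes of 4.29 ± 0.67 in TFoxp3+ and 7.75 ± 0.53 in TFoxp3− cells differed by −3.45 ± 0.75 (adjusted p = 0.02032). Il4 measured 3.92, 4.09, 5.33 and 4.78 in activated TFoxp3+ cells, against 9.69, 9.23, 9.87 and 8.97 in activated TFoxp3− cells. It was not called in TFoxp3+ cells (0.57 ± 0.20, adjusted p = 0.06124), and the difference of the changes was −4.56 ± 0.31 (adjusted p = 6.643e-05). Csf2, the growth factor GM-CSF, moved likewise, with changes of 0.46 ± 0.32 in TFoxp3+ and 4.51 ± 0.34 in TFoxp3− cells (difference −4.04 ± 0.49, adjusted p = 0.00121).

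Regulatory T cell genes differed in both directions. Cd83 changed by −5.24 ± 0.28 in TFoxp3+ cells and by −1.24 ± 0.44 in TFoxp3− cells (difference −4.0 ± 0.62, adjusted p = 0.004077). Ikzf2 rose more in TFoxp3+ cells (difference 2.42 ± 0.58, adjusted p = 0.03031), and Il2ra less (−1.57 ± 0.29, adjusted p = 0.01048). Foxp3 changed by −0.40 ± 0.32 in TFoxp3+ cells, where it averaged 10.10 after activation and 10.50 ex vivo, and by 1.61 ± 0.37 in TFoxp3− cells, where it averaged 5.81 after activation and 4.20 ex vivo (difference −2.01 ± 0.52, adjusted p = 0.04355). Tnfrsf4, the costimulatory receptor OX40, averaged 12.20 in activated and 12.69 in ex vivo TFoxp3+ cells, and 11.42 in activated and 9.06 in ex vivo TFoxp3− cells (difference −2.85 ± 0.21, adjusted p = 0.0001003). Eif4e showed no called change in TFoxp3+ cells and rose by 1.97 ± 0.26 in TFoxp3− cells (difference −1.99 ± 0.36, adjusted p = 0.009428). Mki67 differed likewise (difference −2.51), with changes of −0.77 in TFoxp3+ and 1.74 in TFoxp3− cells.

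**Figure D5:**
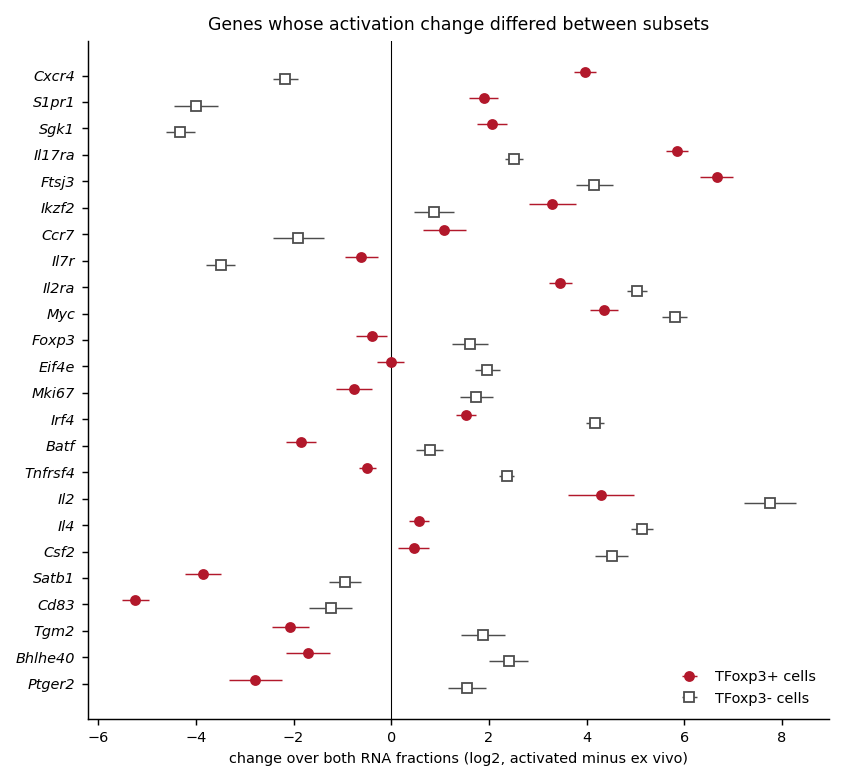
Change on activation (log2, activated minus ex vivo; ± SE) of 24 genes in TFoxp3+ cells (filled) and in TFoxp3− cells (open). Cxcr4, Sgk1 and S1pr1 rose in TFoxp3+ cells and fell in TFoxp3− cells, whereas Il4 and Csf2 rose in TFoxp3− cells and were not called in TFoxp3+ cells.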

How the data were processed

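Gene expression was measured on 16 Affymetrix arrays, of which the 8 arrays of TFoxp3+ cells carry the comparison. The authors deposited log2 values made with RMA on probe sets defined by Entrez gene, as the methods and the submitters' processing notes give it. The sources do not say if both states were normalized in a single run. RNA was amplified as whole transcripts, and arrays were labelled in 3 series: all ex vivo cells, activated TFoxp3− cells and activated TFoxp3+ cells. The table held 16539 features. After removal of 64 control probe sets 16475 genes were tested, of which 15780 had a symbol and 695 none, and 15752 matched RefSeq by Entrez ID. Values ran from 1.75 to 14.56, and the number of arrays limits the precision.

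Changes were fitted with limma 3.58.1 (R 4.3.3). The change over both fractions used the 8 arrays with the fraction as a blocking term (5 residual degrees of freedom), the change in each fraction and their difference used 4 group means (4 degrees of freedom), and the difference between subsets used 8 group means over all 16 arrays (8 degrees of freedom). P-values are two-sided and adjusted by Benjamini-Hochberg over all 16475 genes, with calls at 0.05. An error after a change is its SE. Because both fractions may come from the same cells and array numbers give no pairing, blocks of arrays were tried as alternatives, with array weights, an intensity trend, dim genes left out, other normalizations, a fold test and each array left out. The fits were tested on simulated data. Summaries and figures used Python 3.11.15, pandas 2.3.3 and matplotlib 3.10.9.

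Named genes were the 12 largest rises and 12 largest falls among called, non-overlapping genes with a state mean above the 75th percentile of gene means (6.638), up to 4 members of each gene list with the smallest p, and a set of T cell genes named whatever their values, together 158. Other genes in the text were chosen after their values were seen. The gene lists and the comparison itself were chosen with earlier results of these data known.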

Additional observations from a re-analysis of the deposited data

Results flagged for a closer look

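In 12 of 316 sets of 4 arrays of a named gene, 1 array stood apart from the other 3 by Dixon's test. Chance gives about 1 in 20 for arrays of a single kind. Each set here mixed cytosolic and polysome-associated arrays, so this rate holds only where the fractions do not differ. On the activated arrays these were Il17ra at 11.52 on array 15 (11.91 to 11.97), Eif2b4 at 7.99 on array 14 (8.88 to 9.04), Pdk1 at 4.61 on array 16 (3.48 to 3.62) and Tnfrsf25 at 6.05 on array 13 (7.39 to 7.6), with the range of the other 3 arrays in brackets. On the ex vivo arrays they were H4c8 at 5.72 on array 5 (4.19 to 4.37), Ccr8 at 5.29 on array 2 (6.21 to 6.31), Vars at 9.65 on array 1 (9.35 to 9.4), Slc38a9 at 5.61 on array 2 (6.44 to 6.55), Stat5a at 8.26 on array 6 (7.48 to 7.57), Bak1 at 5.87 on array 1 (5.41 to 5.44), Casp8 at 3.99 on array 1 (5.05 to 5.25) and Tnfrsf8 at 5.27 on array 2 (4.6 to 4.65).

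The change on activation differed between TFoxp3+ and TFoxp3− cells for 1138 genes in the test of the difference itself. Among the genes named, the change in TFoxp3+ cells was more positive, by the log2 amount in brackets, for Sgk1 (6.38), Cxcr4 (6.14), S1pr1 (5.87), Il17ra (3.34), Ccr7 (2.99), Il7r (2.88), Ftsj3 (2.49), Ikzf2 (2.42) and Vdac1 (1.46). It was more negative for Il4 (−4.56), Ptger2 (−4.34), Bhlhe40 (−4.1), Csf2 (−4.04), Cd83 (−4.0), Tgm2 (−3.94), Il2 (−3.45), Satb1 (−2.9), Tnfrsf4 (−2.85), Batf (−2.65), Irf4 (−2.64), Mki67 (−2.51), Foxp3 (−2.01), Eif4e (−1.99), Il2ra (−1.57) and Myc (−1.44).

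Between the RNA fractions of TFoxp3+ cells, the change on activation differed for 1 gene, Ttr.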

How the results depend on the processing

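The change over both fractions was called for 6048 genes, and for 4145 to 6119 with each array left out. Restricting the test to genes above the median level gave 3918 (1601 higher, 2317 lower), and testing against a fold of 2 gave 1111 (445 higher, 666 lower); the remaining alternatives gave 5192 to 7696. Cyclic loess moved the median change of all genes to 0.013, against 0.116. Cytosolic calls numbered 639 without array 1 and 668 without array 5, and up to 4717 without others, against 3519. Polysome-associated calls numbered 937 without array 2 and 955 without array 6, and up to 4225, against 3380. The difference between the fractions, 1 gene, became 46 with all 16 arrays in the fit, 2 with array weights, 4 with an intensity trend, 0 above the median level, 2 with consecutive arrays as a block, and 0 to 32 with each array left out (32 without array 13, 9 without array 14, 0 without any other). The difference between subsets, 1138 genes, ranged over 609 to 1659 with each array left out, with 609 to 749 where an ex vivo array was the one removed. The cause of these shifts was not tested.

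Of 149 named genes called, 118 kept the call in every alternative and 147 in every alternative but the fold test, where Ebf1 and Pdgfrb were the exceptions, and none of 2987 values reversed. Most named genes were picked for a large change or a small p, which favours calls that last. These counts do not cover the other genes in the text. No paired analysis was possible because each array has a number of its own and the labels tie no arrays together. With 2 arrays a group, the activated arrays, whose duplicates differed more, limit the precision.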
